A study of Homo sapiens with 27 samples.

Results

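Intermediate filaments other than keratins were followed through 6 genes in MCF10DCIS.com cells given calcium oxalate crystals. The genes are VIM, NES and SYNM, which encode filament proteins of the cytoplasm, and LMNA, LMNB1 and LMNB2, which encode the lamins of the nucleus. They are 6 of the 60683 genes in the deposited tables, and all 6 were among the 16173 genes that passed the filter on low counts. The 6 symbols were chosen by name with earlier results of the same expected counts known, so the counts over the groups belong to the choice. The differences between groups below, with their calls and p-values, therefore describe the fit and are not independent evidence about these genes.

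Intermediate filaments are rope-like polymers that give cells and nuclei resistance to stretching. Vimentin, the VIM product, is a type III filament protein of mesenchymal cells that is also made by many cultured epithelial lines and by carcinoma cells that have taken on mesenchymal features. Nestin, the NES product, is a type IV protein known from progenitor cells and needs a partner such as vimentin to build filaments, and synemin, the SYNM product, is likewise incorporated into vimentin filaments. The lamins form the meshwork under the inner nuclear membrane, where A-type lamins (LMNA) are abundant in stiff tissues and B-type lamins (LMNB1 and LMNB2) are present in nearly all cells.

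MCF10DCIS.com cells derive from the human MCF10A breast epithelial series and serve to model ductal carcinoma in situ. Flasks of 500000 cells were left for 6 h before crystals were added at 0.1 mg/mL, per the labels' protocols, and polyadenylated RNA was sequenced. The groups were COM, plates of calcium oxalate monohydrate, and 4 forms of calcium oxalate dihydrate: DB (dumbbells), SPH (spheres), TK (thick bipyramids) and TN (thin bipyramids), with 4 libraries each, against 7 libraries labelled Control. All groups are the same line, and how long the cells were kept with crystals was not known here. The labels do not state whether replicates were cultured separately, so p-values reflect only the spread over the libraries at hand, which may be technical. In bulk RNA, fewer cells that express a gene and less of its RNA per cell cannot be told apart.

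Library totals ran from 13115649 to 38672448 counts with a median of 19251210. The serial numbers in the deposited names fall into 3 sets (1 to 10, 11 to 22 and 23 to 27), which were kept as a term in the model. Set 1 holds 2 libraries each of COM, DB, SPH, TN and Control, set 2 holds all 4 TK, 4 Control and 1 each of COM, DB, SPH and TN, and set 3 holds 1 each of COM, DB, SPH, TN and Control. TN C, numbered in set 2, had a mean fragment length of 297.0 nt, within the 257.8 to 319.1 nt of set 1. The other set 2 libraries had 197.6 to 243.2 nt. Its endothelial marker sum, given below, lay with set 2, so its set is uncertain. TN B held liver transcripts, with 759 summed CPM (the count over the scaled library size) of 4 liver markers, against at most 11.6 CPM in any other library, and ALB, APOA1 and APOA2 were called higher in TN. All 8 basal breast epithelial markers were measured and summed to 6225 to 8197 CPM over the 27 libraries. Of these, CDH1 (0.36 on the log2 scale) and KRT6A (0.58) rose in DB, 2 of 8 beside 10.02% of all genes called. KRT6A (-0.45) fell in TN, 1 of 8 beside 11.7% of all genes called. Of the stromal (2 of 6 tested), endothelial (1 of 3) and leukocyte markers (2 of 3), 0 were called in any form. Within these lists PTPRC had at most 3 counts while CD68 had 55 to 683 and CD14 29 to 230. VWF had at most 9 while PECAM1 had 27 to 457, and DCN had at most 2 while COL1A1 had 119 to 420. The endothelial markers split by set. They summed to 2.09 to 4.02 CPM in set 2, which holds all TK libraries, with TN C at 3.65 CPM. In sets 1 and 3 they summed to 8.16 to 14.7 CPM. Their part in the results was not tested.

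The B-type lamin genes had like patterns over the libraries, so their promoters are shown here. The windows are RefSeq sequence of GRCh38.p14, from 250 bases before to 50 after the start site. LMNB1 lies on the plus strand at chr5:126776886-126777185 and is 73.7% G or C. LMNB2 lies on the minus strand at chr19:2456910-2457209 and is 67.7% G or C. Capitals mark matches, on either strand, to the motifs named after the sequences.
LMNB1: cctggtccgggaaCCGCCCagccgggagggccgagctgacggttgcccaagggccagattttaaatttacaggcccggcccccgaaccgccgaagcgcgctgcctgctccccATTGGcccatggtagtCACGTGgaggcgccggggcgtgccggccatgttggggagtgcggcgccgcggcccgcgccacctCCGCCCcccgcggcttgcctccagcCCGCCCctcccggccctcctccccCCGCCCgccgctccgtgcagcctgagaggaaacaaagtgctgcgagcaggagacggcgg
LMNB2: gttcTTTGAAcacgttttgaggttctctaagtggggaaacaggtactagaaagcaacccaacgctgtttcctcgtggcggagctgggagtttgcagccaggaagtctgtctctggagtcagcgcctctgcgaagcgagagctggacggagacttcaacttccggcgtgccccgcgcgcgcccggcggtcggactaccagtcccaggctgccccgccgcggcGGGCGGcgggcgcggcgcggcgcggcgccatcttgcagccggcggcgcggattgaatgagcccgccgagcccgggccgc
The motifs searched were the CCAAT box (CCAAT), the cell cycle homology region CHR (TTTGAA), the GC box (GGGCGG), AP-1 (TGANTCA), the E-box (CACGTG) and E2F (TTCCCGC). The LMNB1 window held 4 GC boxes, 1 CCAAT box read on the minus strand and 1 E-box. The LMNB2 window held 1 CHR and 1 GC box. RefSeq windows were matched for all 6 genes by symbol, and the LMNB1 window shown is the one with 4 GENCODE transcript starts within 50 bases of its start site. The other LMNB1 window (chr5:126776373-126776672), with 1 such start, held 0 matches to the motifs searched. Among 35116 windows of the same length, 44.95% held a GC box, 34.61% a CCAAT box, 15.16% a CHR and 7.26% an E-box. No match to AP-1 or E2F was found in either window shown, against 7.71% and 6.55% of all windows. A match describes the letters and does not show that a factor binds.

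Levels per transcript length were compared in the deposited TPM. LMNA was highest at 888 ± 104 TPM and VIM followed at 670 ± 93.2 TPM (SD, n = 27 libraries). LMNB2 had 72.3 ± 19.4 TPM and LMNB1 had 61.9 ± 14.2 TPM. NES had 3.66 ± 2.14 TPM and SYNM had 2.14 ± 0.563 TPM. The 6 genes thus formed 3 tiers of a pair each, and no library mixed the tiers. The order LMNA, VIM, LMNB2, LMNB1, NES, SYNM held in 16 libraries. Within a tier the neighbours overlapped in range, and all other orders were swaps inside tiers.

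**Figure D1:**
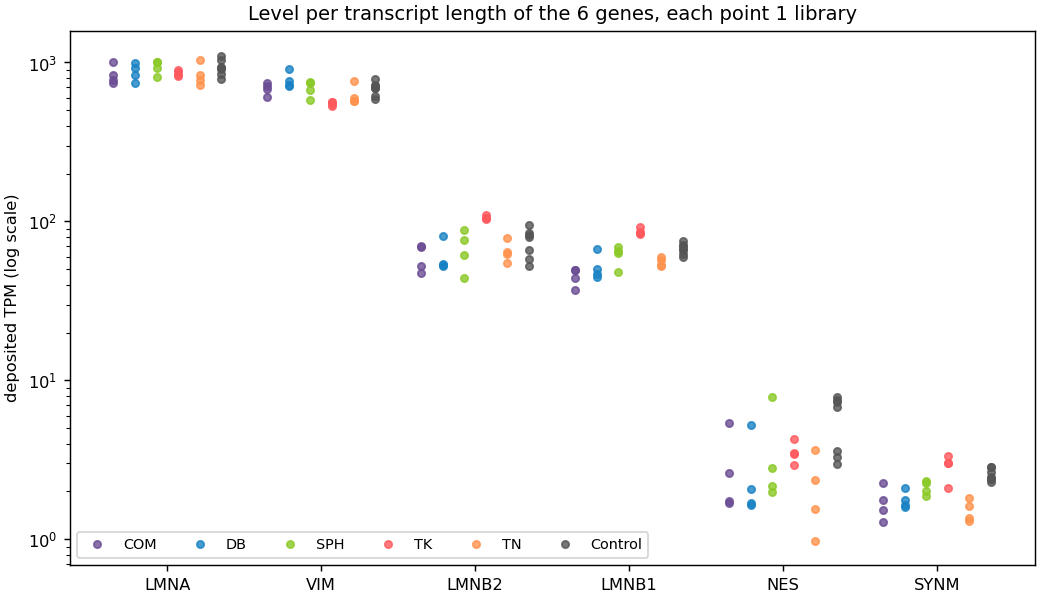
Deposited TPM (log scale) of each gene, with 1 point per library, grouped by crystal form and then Control. LMNA and VIM lie between 528 and 1106 TPM, both B-type lamin genes between 37.0 and 109 TPM, and NES and SYNM between 0.98 and 7.87 TPM.

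In the A- to B-type balance, TK stood apart. The ratio of LMNA to LMNB1 TPM was 9.90 ± 0.366 in TK libraries and 18.9 ± 2.65 in COM libraries, against 13.95 ± 1.60 in Control libraries (SD, n = 4, 4 and 7). The ratio of LMNA to LMNB2 was 8.11 ± 0.178 in TK libraries and 13.1 ± 3.05 in Control libraries. TK is in set 2 alone, where the 4 Control libraries had a smaller LMNA to LMNB2 ratio of 11.1 ± 1.84 and an LMNA to LMNB1 ratio of 13.6 ± 1.40. No TK library reached the lowest Control ratio, which was 12.03 for LMNB1 and 9.74 for LMNB2. VIM over SYNM was 443 ± 74.4 in DB libraries, 422 ± 126 in COM libraries, 413 ± 61.7 in TN libraries, 198 ± 38.4 in TK libraries and 270 ± 36.8 in Control libraries. These ratios are descriptions of TPM, with no test.

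The joint edgeR test of any difference between the 6 groups called 4 of the 6 genes (NES, SYNM, LMNB1 and LMNB2), against 23.2% of all genes tested. Its adjusted p was 4.5e-06 for NES, 1.5e-05 for SYNM, 2.7e-05 for LMNB1 and 0.0039 for LMNB2, while VIM had 0.061 and LMNA 0.41. Against Control, COM had 3 of the 6 called, all lower, beside 6.36% of all genes called and 2.42% called lower. DB had the same 3 called lower (NES, SYNM and LMNB1), beside 10.02% of all genes called and 4.10% called lower. SPH had 0 called, beside 0.111% of all genes, with 2 of the 6 at an unadjusted p under 0.05 (NES and SYNM), as had 6.47% of all genes, and 0 called by DESeq2. TK had VIM and NES called lower and LMNB2 called higher, beside 15.4% of all genes called, 7.33% lower and 8.04% higher. TN had NES and SYNM called lower, beside 11.7% of all genes called and 4.88% lower. The comparisons share the Control libraries, so their calls are not independent of each other, and the choice of the genes bars any reading of these counts against those shares. The median difference of all genes was between -0.02 and 0.00 on the log2 scale in all 5 comparisons.

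**Figure D2:**
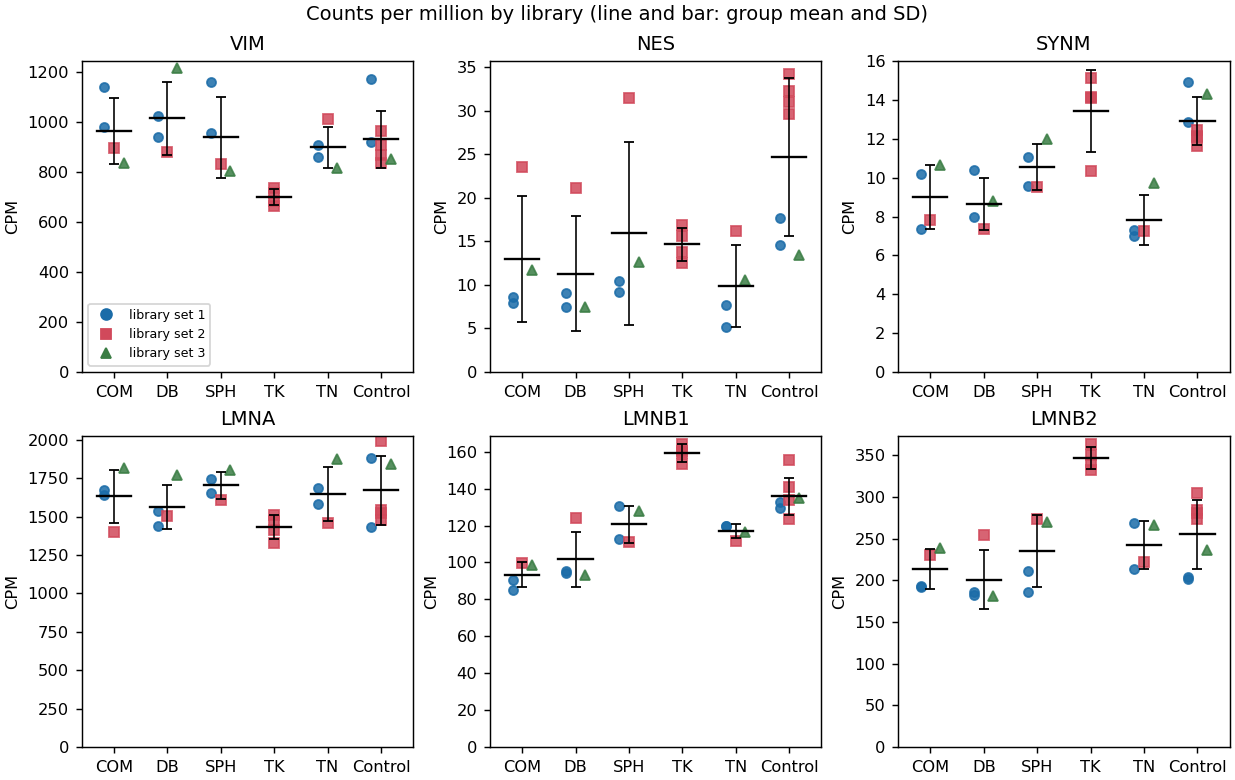
CPM by library for each gene, with the crystal forms left of Control, symbols for the 3 library sets, and a line and bar for the group mean and SD. LMNB2 and VIM in TK lie wholly outside the Control range, LMNB1 in COM and TN and SYNM in COM, DB and TN lie wholly below it, and NES splits by library set within most groups.

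**Figure D3:**
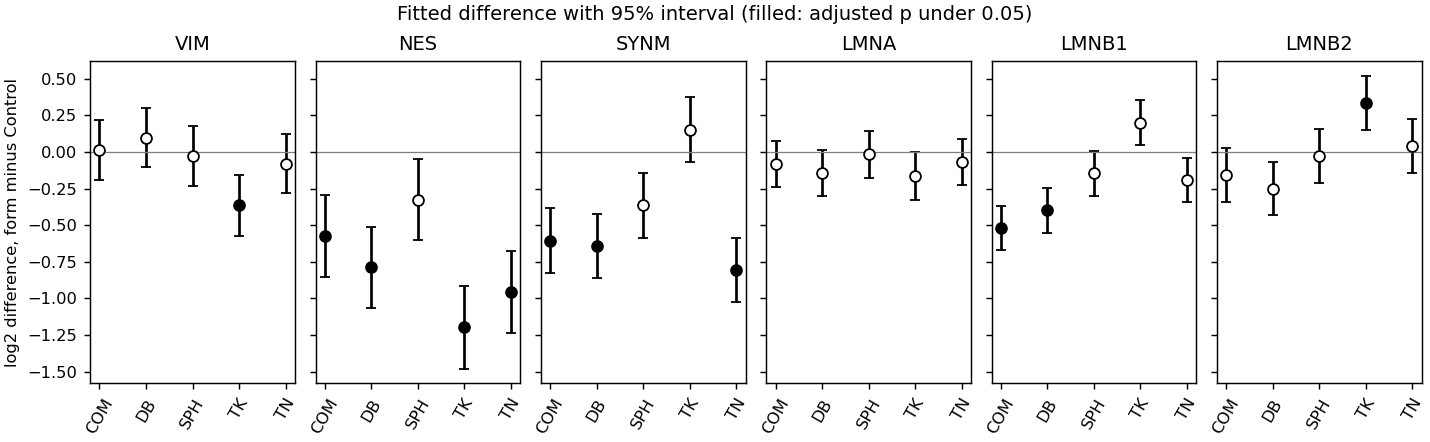
Fitted log2 difference of each crystal form minus Control with its 95% interval, for the 6 genes, with filled points at an adjusted p under 0.05. NES is below 0 for every form, SYNM is below 0 for all but TK, and LMNA lies between -0.16 and -0.02.

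Nestin RNA was lower with 4 of the 5 forms. NES (chr1:156668763-156677397, minus strand, GENCODE 29 on GRCh38) had 102 to 853 counts per library. Its level was 8.62, 7.92, 23.5 and 11.7 CPM in COM A to D. It was 9.02, 7.50, 21.1 and 7.43 CPM in DB A to D, and 10.4, 9.13, 31.4 and 12.6 CPM in SPH A to D. The C library, the one of set 2, was the highest of each of these forms.
NES was at 12.5, 16.8, 15.5 and 13.8 CPM in TK A to D and at 5.20, 7.70, 16.1 and 10.5 CPM in TN A to D. Control libraries ran from 13.4 to 34.2 CPM with a median of 29.6 CPM. The ranges of every form and Control overlapped. The 4 Control libraries of set 2 had 29.6 to 34.2 CPM and the other 3 had 13.4 to 17.7 CPM. All 4 TK libraries were below all 4 Control libraries of their own set.
With the set in the model, NES fell by 1.20 on the log2 scale in TK (SE 0.14, adjusted p = 6.9e-06), to 0.436 of the Control level. It fell by 0.96 in TN (SE 0.14, adjusted p = 8.1e-05), by 0.79 in DB (SE 0.13, adjusted p = 0.00062) and by 0.58 in COM (SE 0.14, adjusted p = 0.011). In SPH the difference was -0.33 (SE 0.14, 95% interval -0.60 to -0.05) and was not called. Without the set term the calls for COM, DB and TK ended (differences -0.91, -1.15 and -0.74, adjusted p = 0.20, 0.070 and 0.18). With a replicate block in place of the set, NES in TK was at -0.64 (adjusted p = 0.071). With TN C counted in set 1, NES was at -0.56 in COM (adjusted p = 0.082) and -0.50 in TN (adjusted p = 0.098), and neither was called. Without TN B, which held liver transcripts, and TN C together, NES was at -0.98 in TN (adjusted p = 0.0030).

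Synemin RNA was lower with COM, DB and TN. SYNM (chr15:99098217-99135593, plus strand) had 129 to 400 counts per library, with the lowest mean TPM of the 6. It was at 7.37, 10.2, 7.82 and 10.7 CPM in COM A to D, and at 10.4, 7.99, 7.36 and 8.82 CPM in DB A to D. TN A to D had 7.29, 7.02, 7.25 and 9.71 CPM. Control libraries ran from 11.6 to 14.9 CPM with a median of 12.5 CPM, so every COM, DB and TN library was below every Control library.
SYNM was at 9.59, 11.1, 9.52 and 12 CPM in SPH A to D and at 14.1, 14.1, 10.4 and 15.2 CPM in TK A to D. Both ranges overlapped that of Control, and TK C stood below the other TK libraries.
SYNM fell by 0.81 on the log2 scale in TN (SE 0.11, adjusted p = 3.1e-05), to 0.571 of the Control level. It fell by 0.64 in DB (SE 0.11, adjusted p = 0.00047) and by 0.61 in COM (SE 0.11, adjusted p = 0.00097). The difference was -0.36 in SPH (SE 0.11, adjusted p = 0.36) and 0.15 in TK (SE 0.11, adjusted p = 0.37). The 3 calls were made in all alternatives fitted over all sets, which gave -0.52 to -0.67 in COM, -0.57 to -0.75 in DB and -0.74 to -0.86 in TN. Without TN B and TN C together, SYNM was at -0.78 in TN (adjusted p = 0.0018).

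Vimentin RNA was lower with TK and was not called in another form. VIM (chr10:17228259-17237593, plus strand) had 10496 to 39222 counts per library. TK A to D had 734, 684, 714 and 663 CPM. Control libraries ran from 836 to 1170 CPM with a median of 907 CPM, and no TK library reached the lowest of them.
The other forms overlapped Control: 834 to 1139 CPM in COM, 877 to 1214 CPM in DB, 802 to 1159 CPM in SPH and 816 to 1010 CPM in TN. VIM fell by 0.36 on the log2 scale in TK (SE 0.10, adjusted p = 0.016), to 0.777 of the Control level. Without TK B the difference was -0.33 (adjusted p = 0.056) and without TK D it was -0.32 (adjusted p = 0.065). In COM, DB, SPH and TN the differences were 0.01, 0.10, -0.03 and -0.08, each with an SE of 0.10. The antisense gene VIM-AS1 overlaps VIM and had 15.5 to 108 counts, far fewer than VIM. Since no strand setting is given, reads from sequence that the 2 genes share could belong to either.

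Lamin B1 RNA was lower with COM and DB. LMNB1 (chr5:126776623-126837020, plus strand), whose product is anchored to the inner nuclear membrane by a permanent farnesyl group, had 1169 to 4597 counts per library. COM A to D had 84.97, 90.7, 99.5 and 98.4 CPM and DB A to D had 95.4, 94.1, 124 and 93.3 CPM. Control libraries ran from 124 to 156 CPM with a median of 134 CPM. All COM libraries were below all Control libraries, and of DB only the C library reached into their range.
SPH A to D had 113, 131, 111 and 128 CPM and TN A to D had 120, 120, 112 and 116 CPM. TK A to D had 159, 164, 161 and 153 CPM. Every TN library was below every Control library, SPH overlapped Control, and in TK only the D library was below the highest Control library.
LMNB1 fell by 0.52 on the log2 scale in COM (SE 0.07, adjusted p = 8.1e-05), to 0.698 of the Control level, and by 0.40 in DB (SE 0.07, adjusted p = 0.0013). It was not called in SPH (-0.15, SE 0.07), TN (-0.19, SE 0.07, adjusted p = 0.096) or TK (0.20, SE 0.08, adjusted p = 0.070). The TK value was called by DESeq2 (0.21, adjusted p = 0.035), without the set term (0.23, adjusted p = 0.037), without Control D and without DB C.

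Lamin B2 RNA was higher with TK. LMNB2 (chr19:2427638-2456996, minus strand), the other B-type lamin gene, had 2488 to 9646 counts per library. TK A to D had 351, 340, 363 and 332 CPM, against 202 to 305 CPM with a median of 273 CPM in Control libraries. Every TK library was above every Control library.
COM libraries had 192 to 239 CPM, DB libraries 181 to 254 CPM, SPH libraries 186 to 274 CPM and TN libraries 214 to 268 CPM, all overlapping Control. LMNB2 rose by 0.34 on the log2 scale in TK (SE 0.09, adjusted p = 0.012), to 1.26 times the Control level. In DB it was at -0.25 (SE 0.09, adjusted p = 0.073), a value that DESeq2 called. COM was at -0.16, SPH at -0.03 and TN at 0.04, with SEs of 0.09. LMNB2 shares its strand and part of its span with TIMM13, a mitochondrial import chaperone gene that had 838 to 3800 counts, so some reads could belong to either.

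Lamin A/C RNA did not pass the threshold in any comparison. LMNA (chr1:156082573-156140089, plus strand), which encodes lamins A and C by alternative splicing, had 21148 to 64508 counts per library. It was at 1398 to 1817 CPM in COM libraries, 1441 to 1770 CPM in DB libraries and 1611 to 1806 CPM in SPH libraries. TK libraries had 1331 to 1513 CPM and TN libraries had 1456 to 1873 CPM. Control libraries had 1435 to 1991 CPM with a median of 1542 CPM. All forms overlapped Control. The differences were -0.08 in COM, -0.14 in DB, -0.02 in SPH, -0.16 in TK and -0.07 in TN, with SEs of 0.08. The 95% intervals ran from -0.33 at the lowest (TK) to 0.14 at the highest (SPH), so a change of the size of NES in TK lies outside them. The TK interval, -0.33 to -0.0015, left out 0 (edgeR adjusted p = 0.17).

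All forms were given at the same dose, and 10 pairs of forms were compared. Of the 60 differences over the 6 genes, 17 were called, and 11 without SPH C. TK, the thick bipyramids, was 1 of the forms in 14 of these.
Between the bipyramids, TN minus TK had SYNM called at -0.96 (SE 0.13, adjusted p = 0.00068), beside 0.216% of all genes called. No TN library reached the lowest TK library. LMNB1 was at -0.39 (95% interval -0.58 to -0.21, adjusted p = 0.076), and NES was at 0.24 (interval -0.10 to 0.58). VIM was at 0.29 (interval 0.04 to 0.53) and LMNB2 at -0.29 (interval -0.52 to -0.07), neither called (adjusted p = 0.39 and 0.32). For VIM, LMNB1 and LMNB2 the TN and TK libraries did not overlap. Within set 2, TK minus TN gave 0.89 for SYNM, 0.51 for LMNB1, 0.64 for LMNB2, -0.53 for VIM and -0.14 for NES. These values rest on 1 TN library, TN C.
TK minus COM had 5 genes called, beside 14.5% of all genes: LMNB1 at 0.72 (SE 0.09), SYNM at 0.76 (SE 0.13), LMNB2 at 0.49 (SE 0.11), NES at -0.62 (SE 0.17) and VIM at -0.38 (SE 0.12). TK minus DB had 4 called, beside 17.8%: SYNM at 0.80 (SE 0.13), LMNB1 at 0.60 (SE 0.09), LMNB2 at 0.59 (SE 0.11) and VIM at -0.46 (SE 0.12). TK minus SPH had 4 called, beside 5.60%: SYNM at 0.52 (SE 0.13), LMNB2 at 0.36 (SE 0.11), LMNB1 at 0.35 (SE 0.09) and NES at -0.87 (SE 0.17). In these 3 pairs both B-type lamin genes and SYNM were higher in TK. TK is numbered in set 2 alone, where each of these forms has 1 library, and 8 of these 13 calls were also made within set 2. TK minus COM gave 0.68 for LMNB1, 0.59 for LMNB2, 0.78 for SYNM and -0.68 for NES within set 2, all called, and -0.36 for VIM, which was not (adjusted p = 0.12). TK minus DB gave 0.45 for LMNB2 and 0.87 for SYNM, both called, while LMNB1 at 0.36 (adjusted p = 0.074) and VIM at -0.33 (adjusted p = 0.17) were not. TK minus SPH gave 0.52 for LMNB1 and -1.10 for NES, both called, while LMNB2 at 0.34 (adjusted p = 0.096) and SYNM at 0.50 (adjusted p = 0.19) were not.
Of the other pairs, SPH minus COM had LMNB1 called at 0.37 (SE 0.08, beside 0.544% of all genes) and TN minus COM had LMNB1 called at 0.33 (SE 0.08, beside 5.03%). In both, every library of the dihydrate form was above every COM library. TN minus SPH had NES called at -0.63 (SE 0.15, beside 1.27%). DB minus COM (0.198% of all genes called), SPH minus DB (0.247%) and TN minus DB (10.3%) had 0 of the 6 called by edgeR, and TN minus DB was closest for LMNB2 at 0.29 (95% interval 0.09 to 0.49, adjusted p = 0.054). In DB minus COM the 95% intervals ran from -0.14 to 0.31 for VIM, -0.52 to 0.10 for NES, -0.28 to 0.21 for SYNM and -0.05 to 0.29 for LMNB1. LMNA was called in 0 of the 10 pairs.

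Within the sets the directions could be followed separately, though a set with 1 library per group borrows its spread from the others. SYNM was lower within each set in COM (-0.69, -0.63 and -0.42 in sets 1, 2 and 3), in DB (-0.59, -0.72 and -0.70) and in TN (-0.96, -0.74 and -0.56). Within set 1 the edgeR adjusted p for SYNM was 0.037 in COM, 0.089 in DB and 0.0016 in TN. In sets 2 and 3 the values of these forms rest on 1 library of each form and give direction only. LMNB1 was likewise lower in each set in COM (-0.58, -0.48 and -0.46), and in DB it was at -0.47, -0.16 and -0.53. The 3 COM values lay between -0.58 and -0.46, and the DB value of set 2 was the smallest in size.
NES in TN was at -1.32, -0.98 and -0.35, and in COM at -0.96, -0.43 and -0.19. TK, held in set 2 alone, had NES at -1.12 (SE 0.12), VIM at -0.35 (SE 0.08) and LMNB2 at 0.28 (SE 0.07), all called within the set. LMNB2 in TN was at 0.25 within set 1, -0.37 within set 2 and 0.17 within set 3, where the set 2 value rests on TN C.
Control libraries differed by set as well. NES was higher in Control of set 2 than in Control of set 1 by 0.98 (SE 0.14, adjusted p = 0.00022) and lower in Control of set 3 than in Control of set 2, at -1.24 (SE 0.19, adjusted p = 0.00090). LMNB2 was higher in Control of set 2 than of set 1 by 0.49 (SE 0.08, adjusted p = 0.00088). The NES differences between sets of Control libraries were thus of the size fitted for TN and TK against Control.

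**Figure D4:**
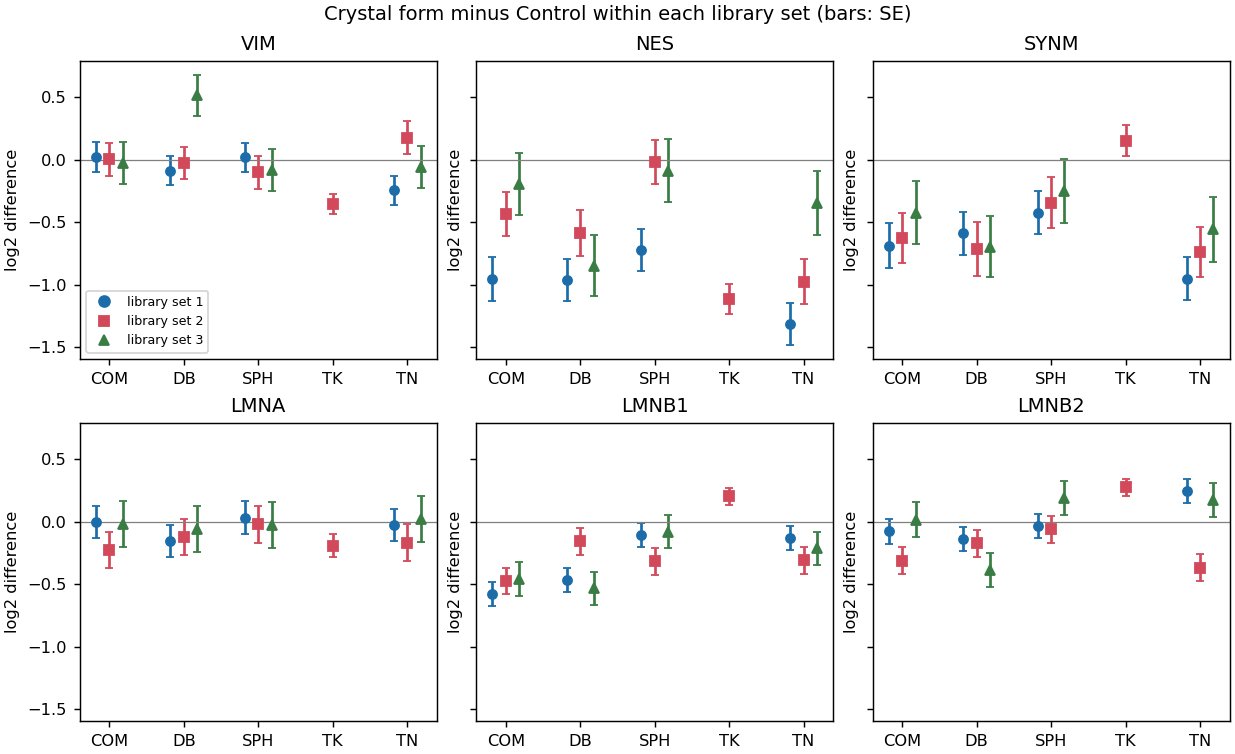
Log2 difference of each crystal form minus Control within each library set, with SE bars, for the 6 genes. SYNM and LMNB1 lie below 0 in every set for COM, DB, SPH and TN, and NES spreads from -1.32 to -0.35 for TN.

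Over the 27 libraries, with the mean of each set taken off, the B-type lamin genes had a Pearson r of 0.72 with each other. VIM ran opposite to LMNB2 (r = -0.78) and to LMNB1 (r = -0.56), SYNM had r = 0.65 with LMNB1, and LMNA had r = 0.16 with LMNB1. These are descriptions over libraries that share groups, depth and scaling.
A list of 12 proliferation genes moved with the B-type lamin genes. Its summed level had a median of 1296 CPM in COM, 1391 CPM in DB, 1540 CPM in SPH, 2079 CPM in TK and 1694 CPM in TN libraries, against 1747 CPM in Control libraries. The TK libraries (2061 to 2101 CPM) lay above all Control libraries (1515 to 1896 CPM).
The r with that sum was 0.86 for LMNB1, 0.76 for LMNB2, 0.50 for SYNM, -0.56 for VIM, -0.22 for NES and -0.17 for LMNA. In COM, 5 of the 12 fell and 0 rose, beside 2.42% of all genes called lower, with KIF20A, a kinesin of cytokinesis, at -0.54, the mitotic cyclin CCNB1 at -0.38, the mitotic kinase AURKA at -0.31 and the topoisomerase TOP2A at -0.38. In DB 6 fell and 0 rose, beside 4.10% of all genes called lower, with KIF20A at -0.43, the replication factor MCM5 at -0.34, the thymidylate synthase gene TYMS at -0.30 and CCNB1 at -0.26. In SPH 1 fell (KIF20A, -0.31), beside 0.111% of all genes called. In TK 4 rose and 0 fell, beside 8.04% of all genes called higher. They were the S phase cyclin CCNE2 at 0.99 and the replication factors PCNA at 0.36, MCM2 at 0.36 and MCM5 at 0.22. In TN CCNE2 rose (0.81) and KIF20A fell (-0.22), 2 of 12 beside 11.7% of all genes called. The part of proliferation in the lamin values was not tested.

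**Figure D5:**
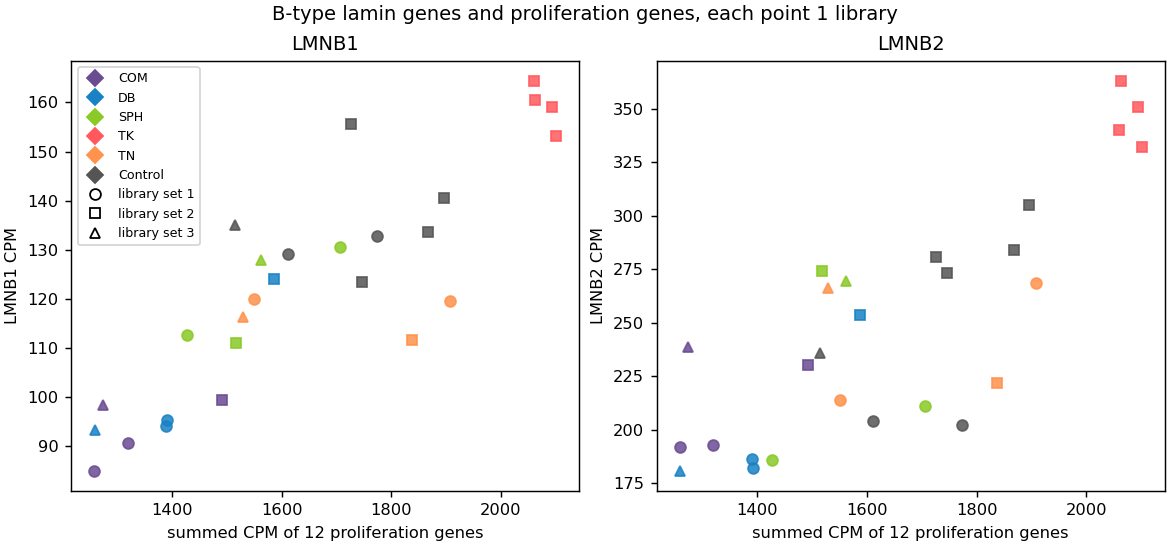
LMNB1 and LMNB2 CPM against the summed CPM of 12 proliferation genes, with 1 point per library, colours for crystal forms and Control and shapes for library sets. TK libraries lie at the upper right in both panels, and COM libraries lie at the lower left for LMNB1.

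Genes that work with the lamina were called in DB, TK and TN. Of 15 listed partners 14 were tested. In DB 3 rose and 1 fell, beside 10.02% of all genes called. In TK 3 rose and 2 fell, beside 15.4%, and in TN 4 rose and 2 fell, beside 11.7%. In COM and SPH 0 were called. The median difference over the 14 was 0.07 in DB, 0.11 in TK and 0.08 in TN, beside 0.00, -0.02 and 0.00 over all genes.
SUN2, which links the lamina to the cytoskeleton across the nuclear envelope, fell by 0.42 in TK (SE 0.08) and by 0.33 in TN (SE 0.08). LEMD2, an inner nuclear membrane protein, fell by 0.30 in TK and by 0.29 in TN. SYNE3, a nesprin of the outer nuclear membrane, rose by 0.38 in TK and by 0.32 in TN. TOR1A, an ATPase of the envelope lumen, rose by 0.28 in TN and was also called higher in TK. TMPO, whose LAP2 proteins bind lamins, rose by 0.28 in TK. BANF1, a DNA-bridging factor, fell by 0.41 in DB, and LEMD3, an inner membrane protein, rose by 0.30 in DB. TMEM43 and TOR1AIP1, both inner nuclear membrane proteins, rose in DB by 0.23 and 0.22. LEMD3 and TOR1AIP1 were also called higher in TN.
Of 5 lamin processing genes, 2 were called in TK, beside 15.4% of all genes, 1 in TN (11.7%) and 1 in DB (10.02%). ZMPSTE24, the protease that trims prelamin A, rose by 0.62 in TK (SE 0.09, adjusted p = 6.7e-05), by 0.50 in TN (SE 0.09) and by 0.31 in DB (SE 0.09). ICMT, which methylates the farnesylated end, rose by 0.28 in TK, and the others of the list (FNTA, FNTB and RCE1) were not called in any form. Of the 10 kinases that act on filaments, 1 was called in each of COM, DB, TK and TN. Of all genes, 6.36%, 10.02%, 15.4% and 11.7% were called in these forms, in the same order. AURKB fell in COM (by 0.37) and DB (by 0.29), and PAK1 fell in TK (by 0.33) and TN (by 0.26).

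Of the 6 cytolinkers, which tie filaments to junctions and other cytoskeletal systems, PPL (periplakin) fell by 0.44 in TK (SE 0.10), 1 of 6 beside 15.4% of all genes called, and 0 were called in the other forms. Of 8 mesenchymal regulators and markers 7 were tested, and 2 were called in TK and 1 in DB, beside 15.4% and 10.02% of all genes. FN1 (fibronectin) fell by 0.78 in TK (SE 0.20) and rose by 0.70 in DB (SE 0.19), and TWIST2, a transcription factor, fell by 0.54 in TK (SE 0.11). SNAI2, ZEB1, TWIST1 and CDH2 were not called in any form. Of the 10 other type III and IV filament genes, 3 were tested and 0 were called. The muscle filament gene DES had at most 4 counts, and the neurofilament genes NEFL, NEFM and NEFH had at most 2.

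The genes whose patterns were most like each member's, over the 27 libraries and 11125 genes averaging 5 CPM or more, were found with set means taken off. For VIM they were GRAMD1A (r = 0.92), SERINC2 (r = 0.92) and ACTG1 (r = 0.91). For NES they were MEX3A, RAPGEF3 (both r = 0.90) and RILPL1 (r = 0.89), and for SYNM they were MDN1 (r = 0.83), MLEC (r = 0.81) and PRDM15 (r = 0.79). For LMNA they were NUDT14 (r = 0.89), NSMCE1 (r = 0.88) and SMARCB1 (r = 0.87). For LMNB1 they were AHSA1 (r = 0.92), NASP and SAFB (both r = 0.90), and for LMNB2 they were BMS1, MCM3 and FTSJ3 (all r = 0.94). SYNM had the weakest nearest neighbour and LMNB2 the strongest.

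The mean transcript length that RSEM weights by isoform abundance was not used in choosing the genes. Of 25 comparisons of a form with Control (NES has a constant length), 0 had an adjusted p under 0.05 in a two-sided exact permutation test within sets, and 3 had an unadjusted p under 0.05. LMNA averaged 2482 ± 89.6 nt in COM libraries and 2374 ± 54.4 nt in Control libraries (SD, n = 4 and 7, exact p = 0.017, the smallest this design gives, adjusted p = 0.28). It averaged 2469 ± 77.5 nt in DB libraries (exact permutation p = 0.033). LMNB1 averaged 2594 ± 57.3 nt in TK libraries and 2662 ± 62.9 nt in Control libraries. Its test used the 4 Control libraries of set 2 alone, from which TK differed by -90.6 nt (exact permutation p = 0.029, adjusted p = 0.28). That p is the smallest a two-sided test of 4 against 4 libraries gives, and every TK library was below each of those 4. Against all Control libraries the ranges overlapped in all 3 comparisons. SYNM had the widest spread, from 5460.5 to 6892 nt over all libraries.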

How the data were processed

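RNA-seq was read from 27 deposited gene tables, 1 per library. The authors deposited expected counts and TPM per gene, with transcript lengths, per the file headers. The submitters' processing notes name Trim Galore, Bowtie2, RSEM and GRCh38. No source used here gives versions, annotation or strand setting. RSEM shares reads that fit several genes in fractions.

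Expected counts were rounded to whole numbers. Genes were filtered with filterByExpr, scaled by TMM and fitted in edgeR 4.0.16 (R 4.3.3) with library set and group over all 27 libraries. Quasi-likelihood F-tests were adjusted by Benjamini-Hochberg over 16173 genes per contrast, with calls at an adjusted p under 0.05. CPM uses the scaled library size. Deposited TPM was used only to compare levels between genes. The mean transcript length in each table was compared by an exact two-sided permutation test within sets (scipy 1.17.1). Alternatives used no set term, single sets, a replicate block, TN C in set 1, relative log expression scaling, DESeq2 1.42.0, no filter, and each library left out. Leaving out TN B and TN C together was added after the data had been seen. The fit was tested on simulated counts.

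The members, gene lists and library sets were chosen with earlier results of these data known. The text names all members, the called genes of each list (at most 4 per comparison, by smallest p) and the 3 genes most correlated with each member (log2 CPM with a prior count of 2). Of the lamina partners, all called genes are named. Counts range from 102 for NES to 64508 for LMNA, so NES and SYNM carry the most counting error. Pairs of libraries of a group differed by more than sampling noise (chi-square per degree of freedom 2.387 to 63.33 over 51 pairs), and each was counted as 1 sample.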

Additional observations from a re-analysis of the deposited data

Results flagged for a closer look

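Of 66 combinations of a gene, a measure and a group, 7 had a library far from the others of its group by Dixon's criterion, which chance meets in about 1 in 20 groups. DB C was such a library for 3 genes, at 21.1 CPM of NES, 124 CPM of LMNB1 and 254 CPM of LMNB2, each above DB A, B and D. It is the DB library of set 2. SPH C, the SPH library of set 2, stood above the other SPH libraries at 31.4 CPM of NES. Control A stood above the other Control libraries at 1170 CPM of VIM, and TN D stood above the other TN libraries at 9.71 CPM of SYNM. SPH A had a mean SYNM transcript length of 5460.5 nt, below the other SPH libraries.

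The difference of LMNB2 between TN and Control was not the same in 2 library sets. It was 0.25 within set 1 and -0.37 within set 2, and the gap of 0.61 on the log2 scale (SE 0.14) had an edgeR adjusted p of 0.025 in a test of the interaction, as did 939 of all genes under the same threshold. The set 2 value rests on 1 TN library (TN C, 222 CPM, against 273 to 305 CPM in the Control libraries of that set), whose set is uncertain. TN A and TN B had 268 and 214 CPM, against 204 and 202 CPM in Control A and B.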

How the results depend on the processing

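No difference between a crystal form and Control that was called changed its direction under an alternative. Scaling by relative log expression and leaving out the filter on low counts changed 0 of the 30 calls. With TN C counted in set 1, TN had 1 of the 6 genes called (SYNM) in place of 2. Within set 2, COM and DB had 0 called, and within set 3 COM and TN had 0 and DB had 1 (LMNB1). These sets hold 1 library of each such form, fewer than the full comparison. Leaving out each library in turn gave 2 to 4 calls for TK, 2 to 3 for TN and 10 to 13 over all 5 forms. COM and DB had 3 and SPH had 0 each time. The calls between pairs of forms ranged from 11 (without SPH C) to 21, and the joint test called 4 to 5. Within set 1, SYNM in DB was not called (-0.59, adjusted p = 0.089). Other single calls lost outside the within-set fits stand beside their genes: NES without the set term, with TN C in set 1 and with the replicate block, and VIM in TK without TK B or TK D. LMNB1 in TN was called without DB C (-0.22, adjusted p = 0.035).

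Libraries with the same letter did not deviate together throughout, with a correlation of -0.16 to 0.45 over 60 pairs of libraries, of which 28 were above 0.1. Within a set 27 of 42 pairs were above 0.1 (median 0.17), and across sets 1 of 18 was (median 0.02). The deviations were taken from group means with set differences left in, so a shared letter and a shared set cannot be told apart. Not every pair was above 0.1, and the letters are not treated as pairing the samples. A replicate block in place of the library set gave 10 calls over the 5 forms in place of 11. The call it lost was NES in TK (-0.64, adjusted p = 0.071). In that fit 5 genes passed the joint test. For transcript length, 0 comparisons passed with or without sets.

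TK exists in set 2 alone, so no value shows TK in another set. NES and SYNM have as few as 102 and 129 counts in a library, and their within-set values carry SEs of up to 0.26.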

Other observations

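EMD, which encodes emerin, an inner nuclear membrane protein that binds lamins and is made by most human cells, was the lamina partner that failed the filter on low counts. It had 0 counts in 23 of the 27 libraries and 1 count in 3 others. TN B had 20 counts of EMD. TN B is also the library with 658 CPM of ALB, 53.2 CPM of APOA1 and 46.9 CPM of APOA2. The other 14 partners on the list were measured in all groups.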
